A study of Danio rerio with 12 samples.

Results

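The transcriptomes of zebrafish larvae kept at a high dose of broflanilide (10 µg/L, n = 3 libraries) were compared directly with those of larvae kept at a low dose (1 µg/L, n = 4). Genes were taken where both deposited tables, each of 1 dose against the controls, list them and where the mean count over the 7 treated libraries was at least 10. This gave 18872 of the 25004 genes listed in both tables, and 18262 of them are annotated as protein coding. The last genes taken, BX005254.1 and BX323074.2, had a mean count of 10.0, and the first left out, zgc:112234 and zgc:154058, had 9.86. Another 5 libraries, from larvae kept in the solvent DMSO alone, served as a reference level and did not enter the test between doses. All libraries were made from whole larvae with a poly(A) directional kit. The sources used here give no larval age, exposure time or strain, and they name no allele or transgene for any group. Separate clutches or pools are not mentioned in the labels, and each p-value therefore reflects the spread between the libraries, which may be technical.

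Broflanilide is a meta-diamide insecticide that acts on GABA-gated chloride channels of insects. In vertebrates the related GABA-A receptors carry fast inhibition in the brain, and their block raises the firing of neurons. Whether broflanilide acts on these receptors in the larvae was not tested. Firing neurons and stimulated cells of other kinds transcribe immediate early genes, such as the fos, jun, egr, nr4a and npas4 families, within minutes and without new protein synthesis. The expression of these genes is usually short-lived and can follow the state of the animal around the time of sampling. Libraries from whole larvae do not tell which cells express them.

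Total counts ran from 11920241 to 13865533 at the high dose and from 10721597 to 16380300 at the low dose. Low dose replicate 4 stood apart from the other 6 treated libraries. On the first principal component of the log2 levels, which held 38.0% of the variance, it lay at 117, and the others lay between -48.3 and 8.28. Its correlation with the other treated libraries was 0.862 to 0.908, against 0.926 to 0.959 between the doses without it. This library also had the highest total count and the lowest share of reads from the mitochondrial genome, 4.70% against 5.47% to 7.54% in the other treated libraries. Gene and list values that move by more than 1.5 times without it are given both ways in the text. Defining markers of the tissues of a whole larva were present in every treated library, among them elavl3 of neurons at 360.2 to 509 CPM (read counts scaled to a common library total), rho of rods at 536 to 1120 CPM, fabp10a of the liver at 169 to 803 CPM and prss1 of the exocrine pancreas at 480.3 to 1407 CPM. Markers at lower levels included mpx of neutrophils at 1.61 to 7.26 CPM, fabp2 of enterocytes at 1.32 to 22.5 CPM and cryaa of the lens at 2.59 to 29.0 CPM. In libraries from whole larvae, fewer cells of a type and less RNA per cell cannot be told apart.

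**Figure D1:**
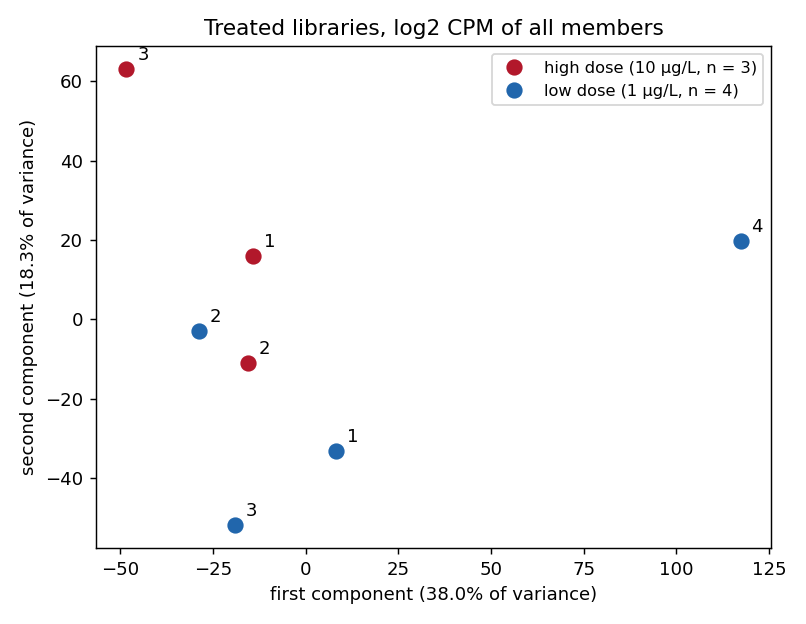
The 7 treated libraries on the first and second principal components of the log2 CPM of all 18872 genes, with replicate numbers beside the points. Low dose replicate 4 lies alone at the right, and on the first component the 3 high-dose libraries overlap with the other 3 low-dose libraries.

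No gene passed the threshold between the doses. With edgeR's quasi-likelihood test, 0 of 18872 genes (0%) had a Benjamini-Hochberg adjusted p under 0.05, and the smallest adjusted p was 0.695. An unadjusted p under 0.05 was reached by 1111 genes (5.89%), 506 of them higher at the high dose (2.68%) and 605 lower (3.21%). The groups did not overlap for 1271 genes (6.73%). Every high-dose library was above every low-dose library for 730 of these (3.87%) and below for 541 (2.87%). With so few libraries such separation also arises by chance, and the share due to chance was not tested. A log2 fold change above 1 or below -1 was found for 1074 genes (5.69%), and the median over all genes was -0.02. In all, 9061 genes (48%) had a positive log2 fold change and 9811 (52%) a negative one. With low dose replicate 4 left out, edgeR called 1 gene, cyr61, at an adjusted p of 0.0412, and 1114 genes (5.9%) had an unadjusted p under 0.05. With high dose replicate 3 left out, edgeR called 0 genes and 428 had an unadjusted p under 0.05. With low dose replicate 4 left out, every high-dose library was above every remaining low-dose library for 1099 genes (5.82%) and below for 887 (4.7%).

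DESeq2, run on the same counts, called 14 of 18831 genes (0.0743%), 8 higher and 6 lower at the high dose. The 8 higher genes were cyr61, nr4a1, tcap, hmgn6, rtn4rl2a, bicdl2, sh3glb2b and rasd1, and the 6 lower were elf3, gar1, eevs, nlrp16, si:ch211-236p5.3 and zgc:153932 (ENSDARG00000052779). A test with limma and library weights called 0 genes. These calls depended on single libraries in number, identity and direction. Without low dose replicate 4, DESeq2 called 59 genes (38 higher, 21 lower), and 12 of the 14 were among them. Without high dose replicate 1 it called 21 (19 higher, 2 lower) with 6 of the 14, without high dose replicate 2 it called 29 (5 higher, 24 lower) with 6, and without high dose replicate 3 it called 4 with 3. Leaving out low dose replicates 1, 2 and 3 in turn gave 17, 34 and 10 calls, with 8, 10 and 7 of the 14. Of the 14 genes, cyr61 was called in each of the 7 fits that leave out 1 library, elf3 and tcap in 6, and sh3glb2b in 1. The typical error was wide for this number of libraries, with a median standard error of 0.32 on the log2 scale. On simulated counts edgeR found 13% of the genes given a 2-fold change and 68% of those given a 4-fold change. These counts were drawn for each gene independently, so no simulated library departed over many genes as low dose replicate 4 did. The shares found may therefore differ in the real data.

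The genes with the smallest p were led by cyr61, which codes for a secreted matrix protein and is itself an immediate early gene in mammalian cells (ENSDARG00000023062; GRCz11 chromosome 23, 45456490 to 45465320, plus strand). Its level was 62.4, 70.15 and 59.5 CPM in high dose replicates 1 to 3 and 27.3, 20.8, 21.1 and 32.2 CPM in low dose replicates 1 to 4. The 3 high-dose values were all above the 4 low-dose values, with no overlap. The means were 64.0 ± 5.50 CPM (SD, n = 3) and 25.3 ± 5.45 CPM (SD, n = 4), which gives 1.33 (SE 0.19) as the log2 fold change. The adjusted p was 0.695 with edgeR and 0.000233 with DESeq2. The 5 controls ran from 19 to 93.9 CPM with a median of 41.9 CPM, and so spanned both doses.

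The orphan nuclear receptor gene nr4a1, an immediate early gene of neurons and muscle in mammals, followed the same order (ENSDARG00000000796; chromosome 23, 32149269 to 32194397, minus strand). It stood at 61.5, 89.3 and 72.1 CPM at the high dose and at 37.3, 27.2, 29.6 and 38.4 CPM at the low dose, and the groups did not overlap. Its log2 fold change was 1.16 (SE 0.20), with an adjusted p of 0.802 by edgeR and 0.00388 by DESeq2. The controls ran from 11.3 to 76.2 CPM. The other genes named below for a small p had the same edgeR adjusted p of 0.802.

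Next in order were a sarcomere gene, a neuronal receptor gene and a glucocorticoid-induced gene. The first, tcap, codes for telethonin, which caps titin at the Z-disc of the sarcomere. It was at 26.5, 33.6 and 20.0 CPM against 11.7, 7.81, 11.3 and 6.39 CPM, a log2 fold change of 1.52 (SE 0.28), with no overlap. For rtn4rl2a, of the Nogo receptor family, the levels were 86.6, 65.9 and 86.1 CPM against 42.4, 37.7, 33.5 and 48.6 CPM. Its log2 fold change was 0.96 (SE 0.18), and all 5 controls, at 36.2 to 51.7 CPM, were below the high-dose libraries. The gene rasd1, a Ras-like GTPase named for its induction by dexamethasone in mammalian cells, had 60.9, 67.8 and 66.7 CPM against 30.6, 45.3, 30.5 and 33.6 CPM (log2 fold change 0.89, SE 0.18). By the choice of genes no low-dose library reached a high-dose one, but the controls, at 38.1 to 70.31 CPM, did.

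The remaining 7 genes of this direction were arl5c, sh3glb2b, bicdl2, prnpa, hmgn6, hsp90aa1.2 and jdp2b, with log2 fold changes of 0.80 to 2.77. The chromatin gene hmgn6 had the widest spread, at 11.3, 4.35 and 37.9 CPM against 3.27, 2.93, 2.99 and 1.28 CPM. Its log2 fold change of 2.77 (SE 0.62) was 1.58 without high dose replicate 3. The dynein adaptor gene bicdl2 had 20.4, 64.9 and 27.3 CPM against 13.6, 10.3, 6.08 and 13.0 CPM, and its log2 fold change of 1.79 (SE 0.40) was 1.13 without high dose replicate 2. Both thus owed much of their size to 1 library. The gene jdp2b, a partner of AP-1 proteins in mammals, stood at 32.2, 42.2 and 38.0 CPM against 24.5, 16.9, 16.4 and 10.2 CPM (log2 fold change 1.14, SE 0.27). The prion protein gene prnpa had the narrowest difference of the 12, a log2 fold change of 0.80 (SE 0.18).

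**Figure D2:**
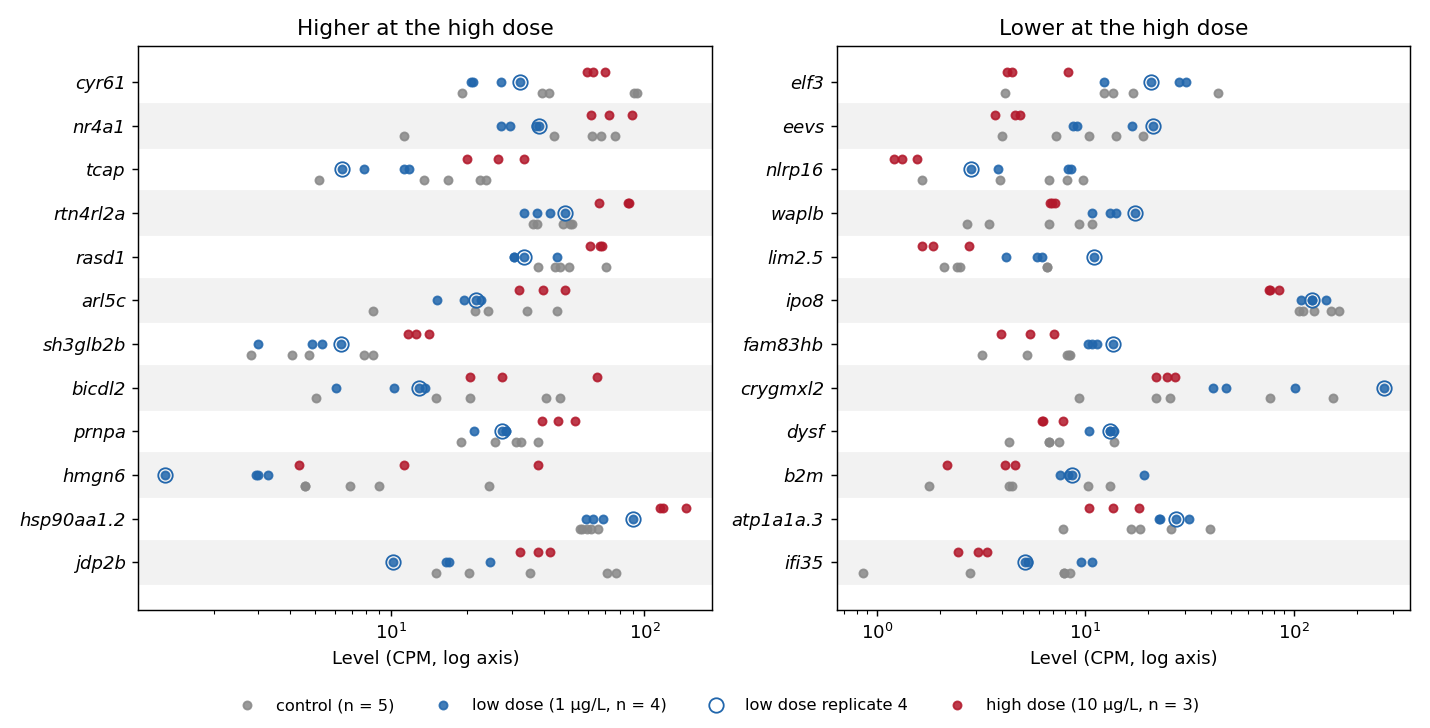
Levels in CPM (log axis) of the 12 genes of each direction with the smallest p among those with a standard symbol and groups that do not overlap, with 1 point for each control (grey), low-dose (blue) and high-dose (red) library. The high-dose and low-dose points are separate because the genes were chosen for that, while the grey control points spread over both in most rows.

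Among the genes with lower levels at the high dose, elf3, an ETS transcription factor of epithelia, had the smallest p (ENSDARG00000077982; chromosome 22, 661505 to 665371, plus strand). It was at 4.43, 8.27 and 4.21 CPM at the high dose and at 30.3, 12.3, 28.0 and 20.7 CPM at the low dose. No library of one dose reached the other, again by the choice of genes. The log2 fold change was -2.03 (SE 0.38), with an adjusted p of 0.802 by edgeR and 0.000734 by DESeq2. Controls ran from 4.14 to 43.3 CPM. The gene eevs, whose enzyme starts the synthesis of the sunscreen compound gadusol in fish, had 3.70, 4.61 and 4.85 CPM against 9.10, 16.7, 8.69 and 21.1 CPM (log2 fold change -1.68, SE 0.37).

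The immune genes nlrp16, b2m and ifi35 were in the same group, but the lists of immune genes described below were mixed. The NOD-like receptor gene nlrp16 stood at 1.32, 1.57 and 1.21 CPM against 8.22, 3.83, 8.50 and 2.84 CPM, a log2 fold change of -2.09 (SE 0.49). For b2m, the light chain of MHC class I molecules, the levels were 2.18, 4.61 and 4.12 CPM against 19.1, 7.53, 8.31 and 8.62 CPM (log2 fold change -1.59, SE 0.43). The interferon-induced gene ifi35 had 2.45, 3.39 and 3.07 CPM against 10.8, 5.3, 9.56 and 5.11 CPM (log2 fold change -1.37, SE 0.38). These levels are low in each library, and for all 3 genes the highest control lay above the highest high-dose value. The lowest control lay below every high-dose value for b2m and ifi35, and above every one for nlrp16.

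The other genes of this direction were waplb, lim2.5, ipo8, fam83hb, crygmxl2, dysf and atp1a1a.3, with log2 fold changes of -2.25 to -0.65. The importin gene ipo8 was the most even of them, at 77.1, 85.2 and 75.9 CPM against 123, 109, 143 and 122 CPM (log2 fold change -0.65, SE 0.16). All 5 controls, at 105 to 165 CPM, lay above the 3 high-dose libraries. The cohesin release gene waplb was at 7.14, 6.79 and 6.95 CPM against 14.0, 13.1, 10.82 and 17.4 CPM. All its controls, at 2.72 to 10.77 CPM, lay below every low-dose value, the highest of them only just. The lens gene crygmxl2 stood at 26.9, 24.5 and 21.8 CPM against 102, 40.8, 47.4 and 272 CPM. The highest of these is low dose replicate 4, and the log2 fold change of -2.25 (SE 0.60) was -1.38 without it.

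Where the controls lay was counted for all genes whose doses did not overlap. Of the 730 genes with every high-dose library higher, the control median was at or above the lowest high-dose value in 275, in the gap between the doses in 130, and at or below the highest low-dose value in 325. For the 541 genes with every high-dose library lower, it was at or above the lowest low-dose value in 222, in the gap in 103, and at or below the highest high-dose value in 216. The control median thus lay in the gap, with the doses on opposite sides of it, for a minority of genes in each direction. These genes were picked for having a gap, and its width bears on the counts. How often a control median would lie there by chance was not tested. Among the 12 named genes of each direction it lay in the gap for 6 of those that were higher and for 2 of those that were lower.

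Immediate early genes had higher values at the high dose in 33 of 38 measured members, and their median log2 fold change was 0.47, against -0.02 over all genes. An unadjusted p under 0.05 with a higher level was found for 18 of 38 members, against 2.68% of all genes, and for 0 members with a lower level. With edgeR, 0 of 38 passed the adjusted threshold. In 13 members every high-dose library was above every low-dose library, against 3.87% of all genes. Without low dose replicate 4, 37 of 38 values were positive, 25 of 38 had a p under 0.05 against 2.99% of all genes, and the median was 0.61.

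Among transcription factor genes that follow neuronal activity, npas4a, egr4, egr2a and egr3 were without overlap between the doses, and egr1 overlapped. The neuron-specific factor npas4a stood at 347, 290.3 and 247 CPM at the high dose and at 161, 71.8, 64.8 and 207 CPM at the low dose (log2 fold change 1.21, SE 0.38). For egr4 the levels were 132, 148 and 143 CPM against 80.2, 48.2, 23.4 and 85.8 CPM (log2 fold change 1.24, SE 0.36). In both genes low dose replicate 4 was the low-dose library nearest to the high dose. The gene egr2a had 16.0, 24.2 and 19.1 CPM against 8.78, 3.83, 1.06 and 6.73 CPM (log2 fold change 1.93, SE 0.51). Its relative egr3 was even within each dose, at 22.3, 22.3 and 20.5 CPM against 15.1, 14.1, 11.7 and 11.8 CPM (log2 fold change 0.71, SE 0.20). For egr1 the levels were 31.8, 40.8 and 25.7 CPM against 27.3, 16.0, 13.3 and 48.6 CPM, and its log2 fold change of 0.30 (SE 0.40) was 0.79 without low dose replicate 4, the highest of the 7 libraries.

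Members of the AP-1 complex, the dimers of Fos and Jun proteins, and other early response genes were less uniform. The gene junbb was at 169, 228 and 210.1 CPM against 161, 96.7, 62.4 and 53 CPM (log2 fold change 1.11, SE 0.34), and its highest low-dose value came close to the lowest high-dose value. Levels of fosab overlapped, at 152, 159 and 111 CPM against 117, 51.2, 23.9 and 62.1 CPM (log2 fold change 1.13, SE 0.41). For fosl1a they were 20.7, 26.7 and 13.7 CPM against 5.19, 2.51, 3.48 and 19 CPM. Only low dose replicate 4 overlapped with the high dose for fosl1a, and its log2 fold change of 1.41 (SE 0.60) was 2.45 without that library. The antiproliferative gene btg2 had 273, 408 and 275 CPM against 189, 107, 66.5 and 185 CPM (log2 fold change 1.21, SE 0.34), and ier2a had 107, 143 and 112 CPM against 83.5, 61.7, 30.7 and 50.4 CPM (log2 fold change 1.09, SE 0.29). Neither of these overlapped. Of the other AP-1 genes, junba, jund and fosl2 overlapped, with log2 fold changes of 0.51 (SE 0.26), 0.44 (SE 0.21) and 0.40 (SE 0.20). Without low dose replicate 4 their values were 0.59, 0.65 and 0.58. A further 4 members of the group overlapped and were near 0. Their log2 fold changes were 0.03 (SE 0.52) for fosb, 0.16 (SE 0.18) for jun, 0.19 (SE 0.33) for fosaa and -0.07 (SE 0.31) for atf3. Without low dose replicate 4 these were 0.70, 0.27, 0.58 and 0.31. For these 4 genes and egr1 other single libraries also moved the value by more than 1.5 times, and fosb, fosaa and atf3 each changed sign with 1 library left out.

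**Figure D3:**
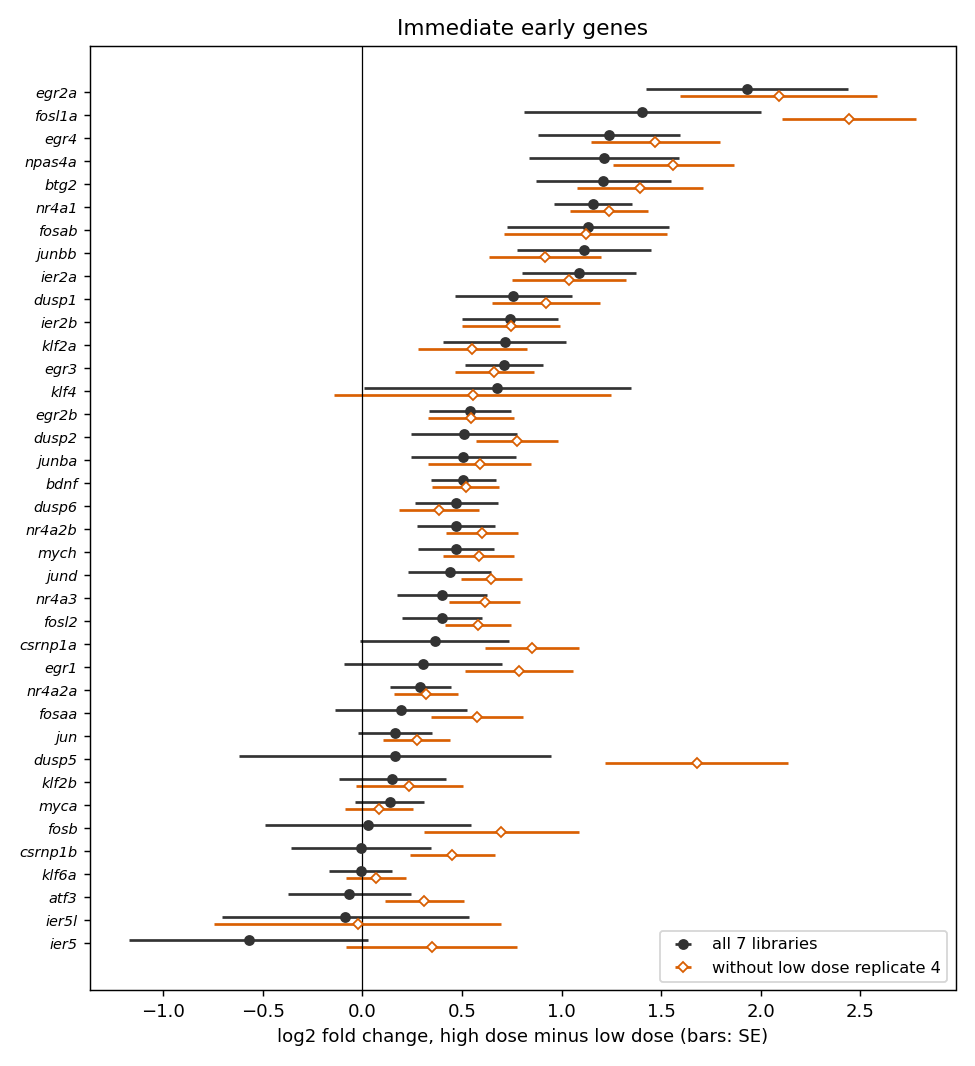
Log2 fold change, high dose minus low dose, of all 38 measured immediate early genes with its standard error as bars, from all 7 libraries (black circles) and without low dose replicate 4 (orange diamonds). Values run from egr2a at 1.93 down to ier5 at -0.57, and 37 of the 38 diamonds are to the right of 0.

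The controls did not share 1 level of immediate early genes. A list score, the log2 CPM averaged over the members and centred on the 7 treated libraries, was 0.30, 0.53 and 0.30 in the high-dose libraries. It was -0.10, -0.51 and -0.70 in low dose replicates 1 to 3 and 0.19 in replicate 4. All 3 high-dose libraries were above all 4 low-dose ones, but the 5 controls ran from -0.74 to 0.54 and covered the whole range of both doses. For npas4a the controls ran from 47.5 to 296 CPM and for btg2 from 48.6 to 519.6 CPM. The part of the time of day or the order of sampling in these values was not tested.

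Genes of the glucocorticoid response and stress axis were higher in 16 of 26 measured members, with a median log2 fold change of 0.10 that was 0.32 without low dose replicate 4. A p under 0.05 with a higher level was found for 2 of 26, against 2.68% of all genes. These were sgk1 and tsc22d3, both induced by glucocorticoids in mammals. The kinase gene sgk1 stood at 85.3, 98.4 and 92.7 CPM against 58.9, 47.4, 46.4 and 71.4 CPM (log2 fold change 0.71, SE 0.19). For tsc22d3 the levels were 198, 200.4 and 243 CPM against 123, 166, 139.9 and 102 CPM (log2 fold change 0.68, SE 0.19). The doses did not overlap in these 2 genes. Over the list, 3 of 26 members were higher without overlap, against 3.87% of all genes, and 0 lower, against 2.87%. The pituitary hormone gene pomcb and the cytokine feedback inhibitor socs3a overlapped between doses. Their log2 fold changes were 1.28 (SE 0.71) for pomcb and 0.62 (SE 0.32) for socs3a, which was 0.41 without low dose replicate 3.

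The cytosolic chaperones did not move as a group, with 27 of 45 members higher and a median of 0.07. The HSP90 gene hsp90aa1.2 stood at 115, 118 and 146 CPM at the high dose and at 68.5, 58.9, 62.4 and 90.3 CPM at the low dose (log2 fold change 0.84, SE 0.19). No low-dose library reached the high dose, and the controls, at 55.7 to 65.4 CPM, lay below every high-dose library. Its tandem neighbour hsp90aa1.1, the form of developing muscle in zebrafish, had 13.4, 22.0 and 17.5 CPM against 18.0, 27.9, 25.6 and 61.8 CPM. These values overlapped, and the log2 fold change of -0.93 (SE 0.39) was -0.44 without low dose replicate 4. The 2 genes lie side by side on chromosome 20 and are near copies, so reads may be split between them in a way the counts do not show.

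The inducible HSP70 genes were low, and 1 library enlarged their difference between the doses. The gene hsp70.3 had 0.727, 1.57 and 1.29 CPM against 3.03, 3.07, 1.64 and 17.8 CPM, where 17.8 CPM is low dose replicate 4, and its log2 fold change of -2.45 (SE 0.82) was -1.12 without it. Its near copy hsp70.2 gave -1.98 (SE 0.71), and -0.86 without that library. The doses did not overlap in these 2 genes. Over the chaperone list, 2 of 45 members were lower without overlap, against 2.87% of all genes, and 3 higher, against 3.87%. The HSP90 cochaperone gene fkbp4 was higher at the high dose, at 97.1, 92.9 and 118 CPM against 76.4, 82.0, 74.7 and 40.5 CPM (log2 fold change 0.58, SE 0.23).

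Genes of rod and cone phototransduction, the cascade that turns light into a change of membrane potential, had higher values at the high dose in 45 of 49 members. Their median log2 fold change was 0.54, and 0.49 without low dose replicate 4. An unadjusted p under 0.05 was found for 19 of 49 members with a higher level, against 2.68% of all genes, and for 0 with a lower one. In 7 members every high-dose library was higher, against 3.87% of all genes. The blue cone opsin gene opn1sw2 stood at 24.7, 31.2 and 46.0 CPM against 20.7, 20.0, 15.6 and 10.0 CPM (log2 fold change 1.03, SE 0.29). For the cone transducin gene gnat2 the levels were 865, 495 and 717 CPM against 414, 492, 287 and 238 CPM (log2 fold change 0.94, SE 0.28). Both were without overlap, although high dose replicate 2 and low dose replicate 2 were nearly equal for gnat2. The list scores of the same 2 libraries were 0.02 and 0.01, and the controls ran from -0.30 to 0.52.

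Lens genes had lower values at the high dose in 45 of 46 members, with a median log2 fold change of -1.56, but most of that size came from 1 library. The list score was -0.28, -0.65 and -0.92 in the high-dose libraries, 0.42, -0.17 and -0.54 in low dose replicates 1 to 3, and 2.14 in low dose replicate 4. Without it, 43 of 46 members were still lower and the median was -0.57. A p under 0.05 with a lower level was found for 30 members with it and for 13 without it, against 3.21% and 2.91% of all genes. The list scores of the controls ran from -1.56 to 1.08, below every high-dose library and above low dose replicates 1 to 3. The crystallin gene crybb1 had 102, 88.1 and 49.5 CPM against 253, 123, 111 and 1221 CPM. Its log2 fold change of -2.43 (SE 0.80) was -1.03 without low dose replicate 4, and that of crygn2, -1.97 (SE 0.67), was -0.89. The marker cryaa ran from 2.59 to 4.03 CPM at the high dose and was 29.0 CPM in low dose replicate 4. Crystallin genes are members of large families of near copies, and reads may be shared between them.

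Genes of DNA replication and mitosis were higher at the high dose in 61 of 62 members, with a median log2 fold change of 0.58 and a p under 0.05 for 13, against 2.68% of all genes. Without low dose replicate 4 these were 55 of 62, 0.37 and 11, against 2.99% of all genes. The list score was -1.18 in that library and between -0.26 and 0.14 in the other low-dose libraries. It was 0.56, -0.05 and 0.76 in the high-dose libraries, so high dose replicate 2 lay within the low dose. The controls ran from -0.14 to 0.83. Thymidylate synthase, tyms, had 5.02, 2.52 and 8.33 CPM against 1.52, 1.53, 0.386 and 0.278 CPM (log2 fold change 2.49, SE 0.65). For the topoisomerase gene top2a the levels were 25, 12.7 and 26.7 CPM against 11.7, 11.1, 11.6 and 5.28 CPM (log2 fold change 1.11, SE 0.34). Neither gene overlapped between the doses, and the highest control was above the highest treated library in both. Over the list, 4 of 62 members were higher without overlap, against 3.87% of all genes, and 0 lower, against 2.87%.

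**Figure D4:**
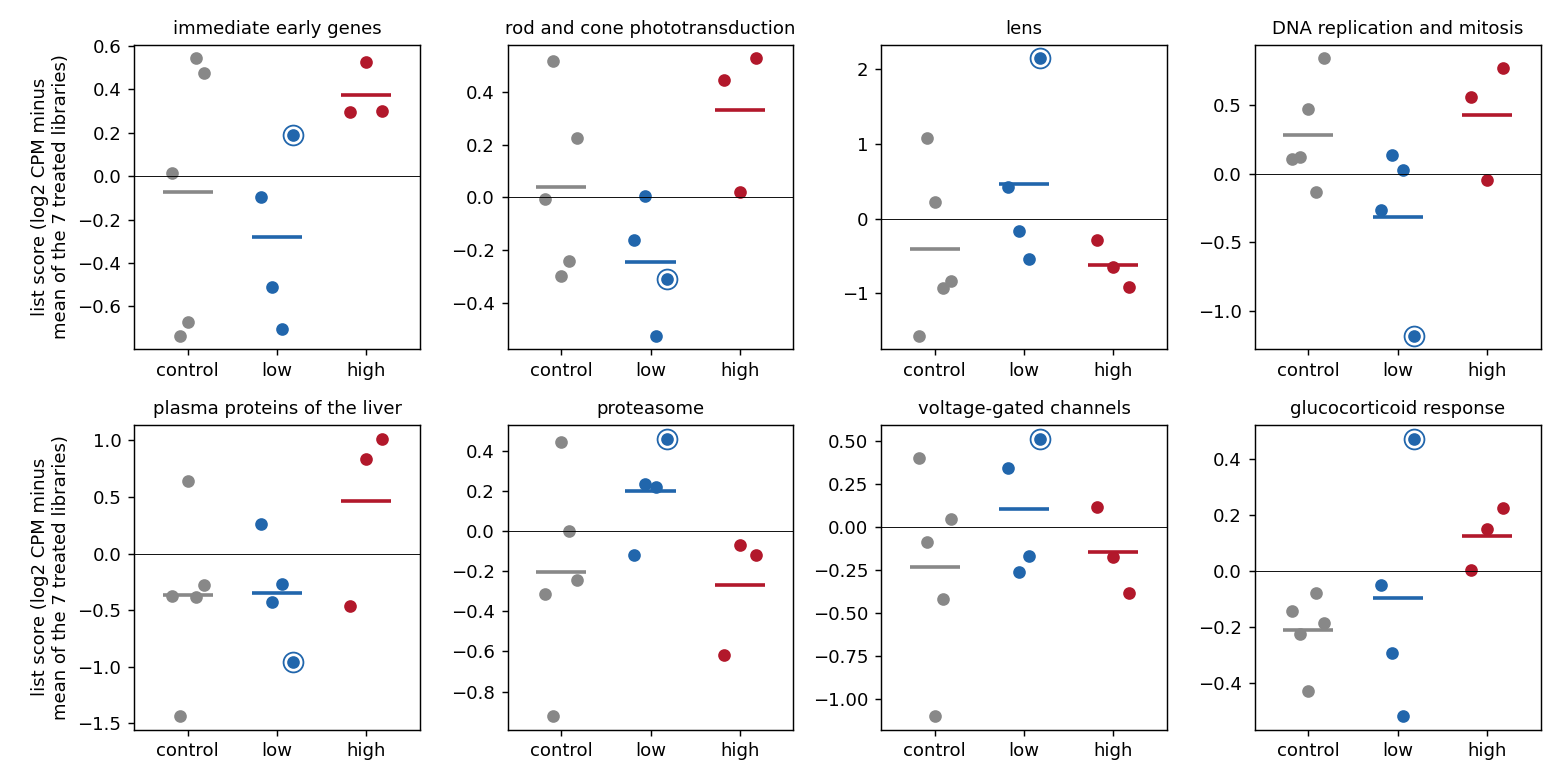
List scores (log2 CPM averaged over the members, centred on the 7 treated libraries) of 8 gene lists, with 1 point a library, a bar at the group mean and a ring around low dose replicate 4. The ringed library is the highest of the treated libraries for lens, proteasome, channels and the glucocorticoid response and the lowest for replication and plasma proteins, and the controls overlap both doses in most panels.

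Plasma proteins made by the liver had the highest median of the 42 lists, 0.92, and 0.77 without low dose replicate 4. Of 45 members 43 were higher at the high dose, 18 with a p under 0.05, against 2.68% of all genes. The doses did not overlap in 2 of 45, close to the 3.87% of all genes. The list score of high dose replicate 1 was -0.47, against 0.84 and 1.01 in the other high-dose libraries and -0.96 to 0.26 at the low dose. The controls ran from -1.43 to 0.64. The antiplasmin gene serpinf2b stood at 7.60, 19.6 and 23.5 CPM against 8.54, 3.21, 5.21 and 3.28 CPM (log2 fold change 1.74, SE 0.45). The transferrin gene tfa had 97.3, 203 and 301 CPM against 121, 77.8, 83.3 and 32.4 CPM (log2 fold change 1.34, SE 0.43). In both the first high-dose library lay inside the low-dose range. The fatty acid binding marker of the liver, fabp10a, showed the same order, at 241, 700.4 and 803 CPM against 462, 396, 353 and 169 CPM, and its part in the result was not tested.

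Apolipoprotein and lipid carrier genes were higher in 17 of 26 members, with a median of 0.31. For apoa1b the levels were 436, 1357 and 1834 CPM against 885, 471, 548 and 249 CPM, an overlap again made by high dose replicate 1. Its log2 fold change of 1.16 (SE 0.48) was 0.74 without high dose replicate 3. Exocrine pancreas enzymes were lower in 16 of 19 members with a median of -0.23, but the median was 0.03 without low dose replicate 4. The carboxypeptidase gene cpa1 had 8.26, 16.6 and 15.8 CPM against 26.6, 21.4, 25.1 and 64.2 CPM, and its log2 fold change of -1.35 (SE 0.41) was -0.85 without that library.

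Proteasome subunits had lower values at the high dose in 43 of 51 members. Their median was -0.49, and -0.35 without low dose replicate 4, and 12 members had a p under 0.05 with a lower level, against 3.21% of all genes. The lid subunit gene psmd11b stood at 28.1, 36.6 and 30.2 CPM against 38.4, 62.9, 50.7 and 76.2 CPM (log2 fold change -0.86, SE 0.24). It was the 1 of 51 members without overlap, against 2.87% of all genes that were lower without overlap. The base ATPase gene psmc4 had 44.1, 64.8 and 44.3 CPM against 56.0, 111, 80.3 and 162 CPM (log2 fold change -1.01, SE 0.33). The list score of high dose replicate 1 was -0.62, below the other 6 treated libraries, which lay between -0.12 and 0.46. The controls ran from -0.92 to 0.44.

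GABA-A receptor subunits form the vertebrate relatives of the channel that broflanilide acts on in insects. Of 21 measured subunits 12 had higher and 9 lower values at the high dose, and the median log2 fold change was 0.02. Without low dose replicate 4, 15 were higher and 6 lower, with a median of 0.17. A p under 0.05 was found for 1 of 21, with a higher level, against 2.68% of all genes. This was gabra6a, a subunit of cerebellar granule cells in mammals. It had 26.8, 16.7 and 31.1 CPM against 18.2, 19.4, 12.4 and 16.7 CPM, an overlapping pair of groups with a log2 fold change of 0.57 (SE 0.25). The subunit gene gabrg1, at 5.02, 3.92 and 4.77 CPM against 3.43, 3.00, 3.38 and 2.5 CPM, was without overlap but had a log2 fold change of 0.57 (SE 0.33). It was the 1 of 21 subunits without overlap, against 3.87% of all genes that were higher without overlap. For gabra4 the log2 fold change of -0.55 (SE 0.38) was -0.25 without low dose replicate 4. Glycine receptor subunits, the other fast inhibitory channels, gave 6 of 7 higher values and a median of 0.06, but 4 of 7 and 0.03 without that library. Genes of GABA synthesis, transport and breakdown gave 12 of 16 lower values and a median of -0.13, and 10 of 16 and -0.06 without it. Neither list had a member with a p under 0.05.

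Voltage-gated sodium, potassium and calcium channels had lower values at the high dose in 58 of 74 members, but 44 of 74 without low dose replicate 4, and the median of -0.27 was then -0.08. A p under 0.05 was found for 6 lower members, against 3.21% of all genes, and for 1 higher member, against 2.68%. The presynaptic calcium channel gene cacna1ba had 23.8, 26.4 and 17.6 CPM against 47.7, 26.6, 34.7 and 45.9 CPM (log2 fold change -0.78, SE 0.25), where the nearest libraries of the doses differed by little. The sodium channel beta subunit gene scn1ba stood at 6.28, 8.44 and 4.69 CPM against 16.1, 10.5, 8.50 and 18.5 CPM (log2 fold change -1.06, SE 0.34). In the other direction, cacna2d4b, a calcium channel subunit of photoreceptors in mammals, was at 35.0, 30.2 and 34.1 CPM against 25.7, 18.3, 20.5 and 21.3 CPM (log2 fold change 0.62, SE 0.18). Glutamate receptors were lower in 24 of 34 members with a median of -0.09 that was -0.04 without low dose replicate 4, and 2 of them, gria1b and grm6b, had lower levels at a p under 0.05, against 3.21% of all genes, with overlapping groups.

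Pan-neuronal and presynaptic genes were higher in 40 of 56 members, with a median of 0.18 that was 0.11 without low dose replicate 4. A p under 0.05 was found for 7 higher members, against 2.68% of all genes, and for 2 lower ones, against 3.21%. Among the 7 was the intermediate filament gene inaa, at 64.8, 44.6 and 70.9 CPM against 35.9, 43.3, 27.5 and 37.6 CPM (log2 fold change 0.73, SE 0.21). Another was stxbp1b, of synaptic vesicle release, at 161, 147 and 158 CPM against 117, 126, 103 and 71.9 CPM (log2 fold change 0.56, SE 0.20). The adhesion gene nrxn2a was 1 of the 2 lower ones, at 29.7, 32.0 and 25 CPM against 47.8, 35.1, 35.2 and 72.0 CPM, and its log2 fold change of -0.73 (SE 0.27) was -0.45 without low dose replicate 4. The doses did not overlap in these 3 genes. They were all such members of the list, 2 of 56 higher, against 3.87% of all genes, and 1 lower, against 2.87%. In the glia and myelin list 26 of 32 members were higher, with a median of 0.18 that was 0.05 without low dose replicate 4. Its myelin gene mpz had 3.44, 5.74 and 5.09 CPM against 1.36, 1.95, 1.45 and 0.667 CPM (log2 fold change 1.81, SE 0.45), and all 5 controls, at 1.37 to 3.14 CPM, lay below the high dose. Pituitary hormones and neuropeptides were higher in 36 of 43 members with a median of 0.29, and the 4 with a p under 0.05, against 2.68% of all genes, included trh at 0.65 (SE 0.24) and adcyap1b at 0.42 (SE 0.18) on the log2 scale. The value of trh was 0.39 without high dose replicate 3.

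The median of the circadian clock list depended on 1 library and went from -0.36 over all 7 to 0.02 without low dose replicate 4. A p under 0.05 was found for 2 of 31 members with a lower level, against 3.21% of all genes, and for 1 with a higher level, against 2.68%. The lower ones were arntl1b at -0.79 (SE 0.29) and nfil3-5 at -0.75 (SE 0.32) on the log2 scale. Both were without overlap, and their values were -0.56 and -0.75 without low dose replicate 4. The repressor gene nr1d2a was steady within each dose, at 535, 530.1 and 529.8 CPM against 444, 410.3, 405 and 384 CPM (log2 fold change 0.36, SE 0.16). The light-induced gene per2 was at 235, 227 and 251 CPM against 283, 274, 257 and 684 CPM. It did not overlap, but its log2 fold change of -0.67 (SE 0.34) was -0.20 without low dose replicate 4. Members without overlap were 3 of 31 lower, against 2.87% of all genes, and 1 higher, against 3.87%.

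Immune genes were mixed. In the list of neutrophils, macrophages and inflammation 25 of 39 members were lower, and 3 members in each direction had a p under 0.05, against 2.68% of all genes higher and 3.21% lower. The transcription factor gene cebpb had 118, 223 and 129 CPM against 110.3, 73.7, 45.2 and 86.9 CPM, and its log2 fold change of 0.98 (SE 0.31) was 0.63 without high dose replicate 2. The NF-kappaB inhibitor gene nfkbiab, itself induced by NF-kappaB, stood at 177, 225 and 228 CPM against 138, 130.2, 136 and 167 CPM (log2 fold change 0.55, SE 0.17). On the lower side were the macrophage gene mpeg1.2, with a log2 fold change of -1.67 (SE 0.64) that was -1.10 without low dose replicate 1, and the NADPH oxidase gene cybb at -0.55 (SE 0.23). Interferon response genes were split 12 to 12, with a median of -0.01 that was -0.07 without low dose replicate 4. The 4 with a p under 0.05 were lower at the high dose, against 3.21% of all genes, among them b2m, described above, and irf1b (ENSDARG00000043249), at 2.78, 6.27 and 6.95 CPM against 21.2, 3.55, 15.6 and 9.67 CPM (log2 fold change -1.24, SE 0.55). Low dose replicates 1 and 3 carried the high values of irf1b, and a second gene of that symbol had a log2 fold change of 0.06 (SE 0.19).

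Genes of energy metabolism differed singly. The glucose-6-phosphatase gene g6pca.2, the last step of glucose release, had 56.5, 76.8 and 107 CPM against 46.4, 28.3, 31.5 and 50.5 CPM (log2 fold change 1.02, SE 0.27), without overlap. Glycolysis and gluconeogenesis as a list gave 27 of 40 higher values and a median of 0.15, which was 0.08 without low dose replicate 4. In fatty acid synthesis and oxidation 23 of 44 members were higher, with a median of 0.01. The peroxisomal thiolase gene acaa1, at 10.9, 15.1 and 15 CPM against 8.70, 8.71, 9.95 and 4.78 CPM, gave 0.76 (SE 0.29), and fasn gave -0.94 (SE 0.43), which was -0.29 without low dose replicate 4. Nuclear genes of oxidative phosphorylation were higher in 61 of 80 members, but in 43 without low dose replicate 4, and those of the mitochondrial genome in 12 of 13.

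Medians of the detoxification and cell damage lists were small. Cytochrome P450 and conjugation enzymes were higher in 52 of 82 members, with a median of 0.14, but in 43 of 82, with a median of 0.03, without low dose replicate 4. The vitamin D 25-hydroxylase gene cyp2r1 stood at 7.07, 11 and 8.01 CPM against 3.75, 5.3, 4.06 and 2.56 CPM (log2 fold change 1.14, SE 0.33). Nrf2 targets were higher in 24 of 39 members. The autophagy receptor gene sqstm1 was among the lower ones, at 30.0, 50.05 and 49.7 CPM against 54.3, 71.1, 71.7 and 69.4 CPM (log2 fold change -0.63, SE 0.21). The doses did not overlap in these 2 genes. Without overlap, 5 of 82 cytochrome P450 and conjugation genes were higher and 2 lower, against 3.87% and 2.87% of all genes. For Nrf2 targets these were 2 and 1 of 39. In the p53 and apoptosis list 12 of 33 members were higher and 21 lower. A higher level with a p under 0.05 was found for 4 of 33, against 2.68% of all genes, and a lower one for 1, against 3.21%. In 5 members every high-dose library was above every low-dose library, against 3.87% of all genes, and in 0 below. Among the 5 were gadd45ab at 0.72 (SE 0.26) and gadd45bb at 0.69 (SE 0.26) on the log2 scale. The caspase gene casp3a was another, at 13.7, 4.70 and 4.12 CPM against 3.27, 2.72, 2.7 and 2.11 CPM. Its log2 fold change of 1.47 (SE 0.45) was 0.71 without high dose replicate 1.

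Genes of ribosome assembly included the lowest log2 fold change among the named genes with a standard symbol. The gene gar1, of the H/ACA particle that guides pseudouridine formation, stood at 0.397, 0.957 and 0.970 CPM against 1.52, 10.3, 7.53 and 3.56 CPM (log2 fold change -2.89, SE 0.69), with no overlap. Of the 12 genes of H/ACA and C/D particles 10 were lower, with a median of -0.29. Cytosolic ribosomal protein genes were near 0, with a median of 0.03 and no member with a p under 0.05. Their majority direction turned on 1 library, with 50 of 79 higher over all 7 libraries but 66 of 79 lower, and a median of -0.10, without low dose replicate 4. Within that list rps15 was at 6.01, 8.09 and 11.9 CPM against 13.7, 16.4, 13.3 and 7.28 CPM. The doses overlapped, its log2 fold change of -0.56 (SE 0.33) ranged from -0.85 to -0.35 when 1 high-dose library was left out, and all 5 controls, at 24.9 to 51.3 CPM, lay above all 7 treated libraries.

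Skeletal muscle and most of the other tissue lists had small medians, while those of heart muscle and of hemoglobins and red cells were larger. Skeletal muscle sarcomere genes were higher in 37 of 80 members, with a median of -0.02 that was -0.15 without low dose replicate 4, and ckmt2a, the sarcomeric mitochondrial creatine kinase, was at 27.1, 26.7 and 35.7 CPM against 20.7, 25.3, 13.5 and 12.5 CPM (log2 fold change 0.72, SE 0.27). Heart muscle had a median of 0.32, keratins 0.07, collagens -0.05, cartilage and bone 0.12, hemoglobins and red cells 0.34, melanin and pigment cells 0.03 and enterocytes -0.02. Without low dose replicate 4 the medians were 0.38 for heart muscle, -0.19 for keratins, -0.15 for collagens and -0.02 for cartilage and bone. They were 0.16 for hemoglobins and red cells and -0.003 for enterocytes. Keratins and cartilage and bone thus changed sign. The list score of hemoglobins and red cells was -0.81 in that library and between -0.03 and 0.24 in the other low-dose libraries. Over all 7 libraries the medians were 0.03 for the endoplasmic reticulum unfolded protein response, -0.10 for cholesterol synthesis, -0.11 for the p53 pathway and apoptosis, 0.14 for coenzyme Q synthesis and -0.03 for the thyroid hormone and growth axis. The last 4 were -0.01, 0.005, 0.03 and 0.05 without low dose replicate 4, so the p53 and thyroid lists changed sign as well. With a p under 0.05, the p53 list had 4 of 33 members higher and 1 lower, and skeletal muscle 3 of 80 higher and 1 lower. Of all genes, 2.68% were higher and 3.21% lower at that p. None of the lists in this paragraph had more than 4 such members in 1 direction over all 7 libraries. Without low dose replicate 4, skeletal muscle had 5 higher and 3 lower, and heart muscle 3 of 18 higher and 0 lower. The shares of all genes were then 2.99% and 2.91%.

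**Figure D5:**
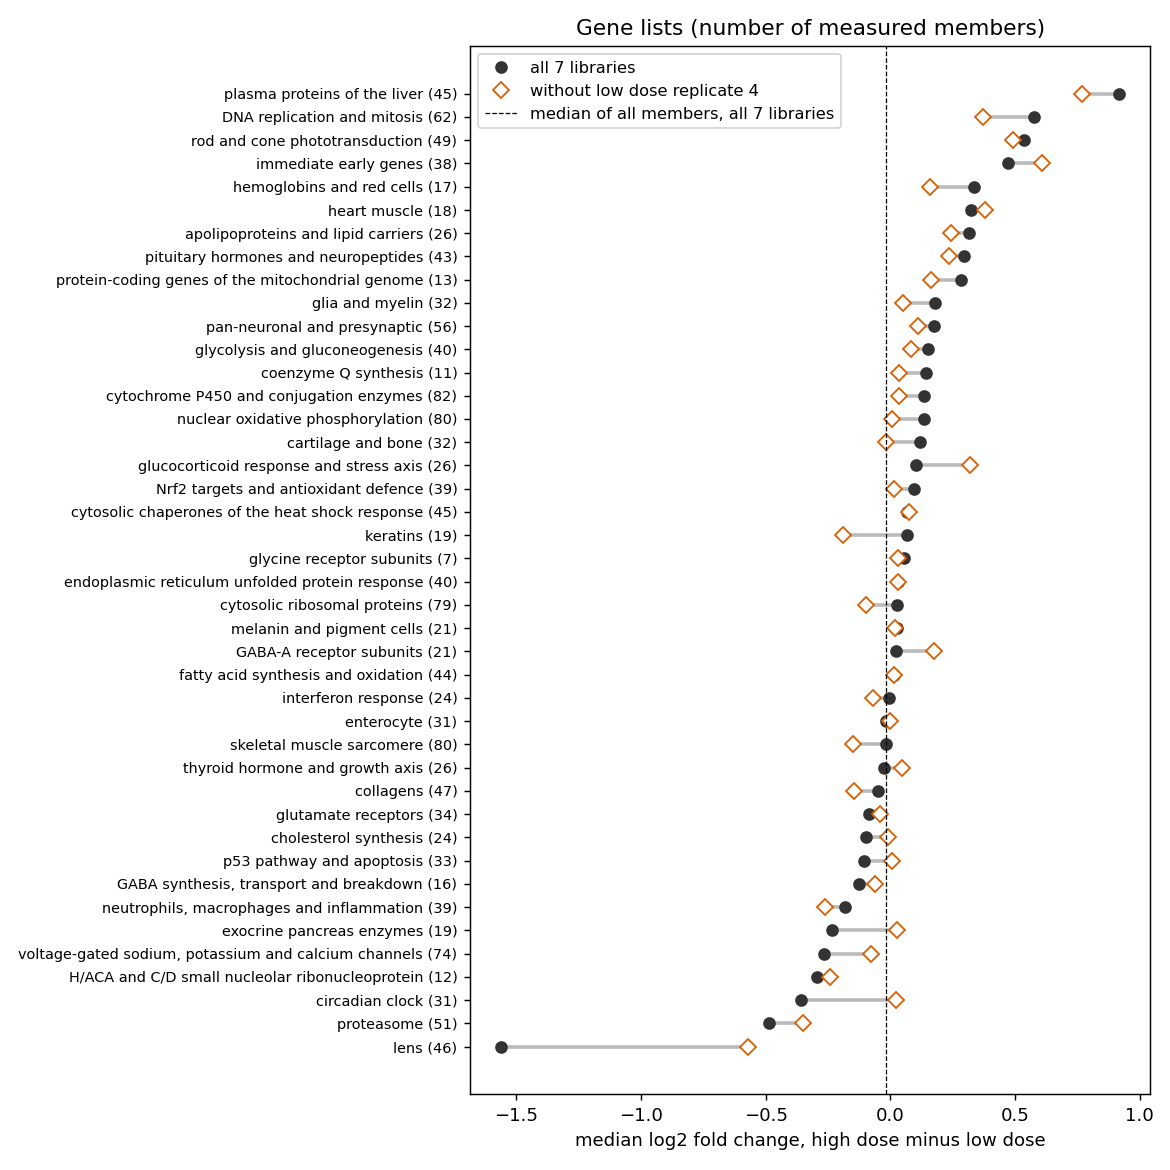
Median log2 fold change, high dose minus low dose, of each of the 42 gene lists with its number of measured members in parentheses, from all 7 libraries (circles) and without low dose replicate 4 (diamonds), and the median of all genes as a dashed line. Plasma proteins, replication, phototransduction and immediate early genes lie highest and lens lowest, and the lens median moves most without that library.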

How the data were processed

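Per the labels' protocols, RNA was extracted with TRIzol and made into poly(A) libraries with a directional dUTP kit. The build GRCz11 and the tools featureCounts, HISAT2, fastp and DESeq2 are named in the submitters' processing notes without versions or roles. The strand setting of the counting is not stated there, and overlapping antisense genes may share reads. Raw counts for each Ensembl gene were deposited, per the file headers, and only these counts were used; 34 other columns of per-sample values were not used. The 807 genes listed only in the low-dose table and the 444 only in the high-dose table were left out, as were 6132 genes under a mean count of 10.

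Counts of the 7 treated libraries were fitted with the quasi-likelihood model of edgeR 4.0.16 in R 4.3.3, with TMM scaling, a prior count of 0.125 and a Benjamini-Hochberg adjusted p under 0.05 as the threshold. The p-values in the text without a tool name are from it and are unadjusted. The biological coefficient of variation was 34.4%, and 27.6% without low dose replicate 4. SE is the size of the log2 fold change over the root of its F statistic. Levels are CPM on 1 TMM scale over all 12 libraries, and for list scores the prior count was 1. DESeq2 1.42.0 and limma 3.58.1 with array quality weights were alternatives. On simulated counts, drawn for each gene independently, 7 of 88 edgeR calls were false (7.95%).

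The genes, the 42 lists and the comparison were chosen with earlier results of these data known, so lists are described by counts and medians without a test. A gene can be in more than 1 list. Named genes are the 12 with the smallest p in each direction (standard symbol, mean count of at least 50, doses without overlap), up to 4 members of smallest p for 27 of the lists, and rps15, hsp90aa1.1, hsp90aa1.2 and gar1, which earlier results had singled out. The genes btg2, egr4, npas4a, junbb, fosl1a, fosab, fosb, fosaa, jun, atf3, egr1, clta, zgc:153932 and si:ch211-236p5.3 were added after their values were seen. The genes junba, jund and fosl2 were added in the same way and did not enter the checks of named genes below. Some GABA-A receptor subunits are counted but not named.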

Additional observations from a re-analysis of the deposited data

Results flagged for a closer look

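In 15 of 185 low-dose groups tested (143 named genes and 42 list scores), 1 library stood apart from the other 3 by more than Dixon's 95% critical value. Chance alone flags about 1 in 20 groups where the groups are not chosen by their values. Many of the genes here were chosen so, and the count cannot be set against that rate. In 10 of the 15 the library was low dose replicate 4. It was the high one for per2 (684 CPM, others 257 to 283 CPM), amy2a (247 CPM, others 92.2 to 106 CPM), clta (22.5 CPM, others 6.28 to 6.97 CPM) and si:ch211-236p5.3 (44.6 CPM, others 16.7 to 19.5 CPM). It was the low one for hmgn6 (1.28 CPM, others 2.93 to 3.27 CPM), top2a (5.28 CPM, others 11.1 to 11.7 CPM), fkbp4 (40.5 CPM, others 74.7 to 82.0 CPM), pklr (79.6 CPM, others 214 to 235 CPM), sult2st2 (8.17 CPM, others 16.7 to 18.4 CPM) and gadd45ab (6.45 CPM, others 12.2 to 12.3 CPM). Low dose replicate 1 was the high one for b2m (19.1 CPM, others 7.53 to 8.62 CPM) and the low one for dysf (10.45 CPM, others 13.1 to 13.7 CPM), nop10 (18.2 CPM, others 27.8 to 30.0 CPM) and sqstm1 (54.3 CPM, others 69.4 to 71.7 CPM). Low dose replicate 3 was the low one for prnpa (21.3 CPM, others 27.4 to 28.4 CPM). The high-dose group, with 3 libraries, was too small for this test.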

How the results depend on the processing

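The edgeR count of 0 calls was also 0 with DESeq2 size factors, without a count filter, with a mean count of at least 50, with limma and library weights, in a fit of all 12 libraries, at an adjusted p under 0.1 and with a log2 fold change of at least 1. DESeq2 called 14, and the cause of this difference between tools was not tested. Leaving out 1 library gave 0 to 1 calls by edgeR, 428 to 1623 genes with an unadjusted p under 0.05 (428 without high dose replicate 3), and 4 to 59 calls by DESeq2, the last chosen after seeing the data. Unadjusted counts under the other settings ran from 841 to 1356. With the replicate number as a block there were 0 calls and 1108 genes with a p under 0.05. Correlations of the deviations of same-numbered libraries were 0.011, -0.119 and 0.091, within the range of -0.125 to 0.137 of differently numbered ones. With so few libraries these values cannot decide whether the numbers pair the samples, and the labels do not say. Of the named genes, 3 with log2 fold changes near 0 reversed: atf3, at 0.21 with limma, 0.32 with the replicate block and -0.22 to 0.31 with 1 library left out, fosaa at -0.0061 to 0.58 and fosb at -0.22 to 0.70 with 1 library left out. The cause was not tested. List medians moved by more than the spread between replicates in 9 combinations of list and setting, 3 of them for the circadian clock and 2 for lens.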

Other observations

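The clathrin light chain gene clta, chosen after its values were seen, had 30.5, 26.5 and 16.1 CPM at the high dose and 6.70, 6.97, 6.28 and 22.5 CPM at the low dose. Low dose replicate 4 alone reached the high dose, and the log2 fold change of 1.18 (SE 0.45) was 1.87 without it, with an edgeR adjusted p of 0.063. For fosl1a, the edgeR adjusted p without that library was also 0.063.

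Tandem genes of chromosome 12 with the symbol zgc:153932 were both lower at the high dose. The first (ENSDARG00000052779, 46120836 to 46145909) was at 4.76, 7.83 and 13.3 CPM against 50.3, 9.69, 27.9 and 57.8 CPM, with a log2 fold change of -2.09 (SE 0.56). The second (ENSDARG00000113315, 46098784 to 46112892) was listed at 0, 0.0870 and 0 CPM against 2.95, 0, 2.22 and 5.61 CPM. The doses overlapped through low dose replicate 2 in both, and reads may be shared between such copies.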
